A study of Mus musculus with 4 samples.

Results

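The CDK inhibitors are 7 genes in 2 families, the Cip/Kip genes Cdkn1a, Cdkn1b and Cdkn1c and the Ink4 genes Cdkn2a, Cdkn2b, Cdkn2c and Cdkn2d. They were taken by name, as the probe sets whose platform annotation lists exactly 1 gene symbol equal to one of these names. This gave 9 probe sets for 7 genes, 5 for the Cip/Kip genes and 4 for the Ink4 genes, of 34945 probe sets and 18193 genes in all. Where a gene has several probe sets, the brightest by its mean of the 4 arrays stands for it, and the other probe sets are given beside it.

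The cells were mouse haematopoietic stem cells (HSC), profiled on Affymetrix arrays after a KLS CD48- CD150+ sort, a gate that keeps Kit positive, Sca-1 positive cells without lineage markers. The Rb family deficient group carried the genotype label Rb -/- p130 -/- p107-/-, and the wild type group Rb +/+ p130 +/+ p107-/-. By these labels both groups lack p107 and differ in Rb and p130, although the wild type samples are titled as wild type with no mention of p107. On the brightest probe set of the p107 gene, itself dim, both deficient pools lay below both wild type pools, as for 18.5% of all genes. Its 3 other probe sets differed by -0.00087, 0.03 and 0.03, as given below. Both groups carry the same label of tamoxifen injection in adult mice with isolation 2 weeks after recombination. Each group had 2 pools of 3 mice, and neither the recombinase nor the promoter that drives it is stated in the labels. Nothing states whether a mouse entered more than 1 pool, so the errors below concern only these pools. They are not a gene's own pool spread alone, since limma draws that spread toward the spread over all genes.

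CDK inhibitors are small proteins that hold back the cyclin-dependent kinases. Ink4 proteins, built of ankyrin repeats, bind CDK4 and CDK6 and keep D cyclins from them, whereas Cip/Kip proteins bind cyclin and kinase together and block CDK2 complexes in particular. Through these kinases both families keep RB, p107 and p130 active, which places the deleted pocket proteins downstream of the inhibitors, and several inhibitor genes are in turn transcribed by E2F factors that pocket proteins restrain. In HSC, Cdkn1c and Cdkn1b are known for quiescence, Cdkn1a for the response to stress and p53, Cdkn2c for limiting stem cell number, and Cdkn2a for its repression by Polycomb proteins.

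One gene of each family was higher in both deficient pools than in both wild type pools, Cdkn1a (2.25-fold) and Cdkn2d (1.61-fold). Neither passed the adjusted threshold, and 17% of all genes were higher in both deficient pools. The other 5 genes overlapped between the groups, with log2 differences between 0.01 and 0.45. Values are log2 expression values made by the authors with RMA, which sets all arrays to nearly the same distribution, so that a general change in RNA per cell would not show. In such bulk samples fewer cells of a type and less RNA per cell cannot be told apart. Levels of different probe sets are not comparable with each other, so only differences between pools are read. The summed linear levels given below weigh bright probe sets most.

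**Figure D1:**
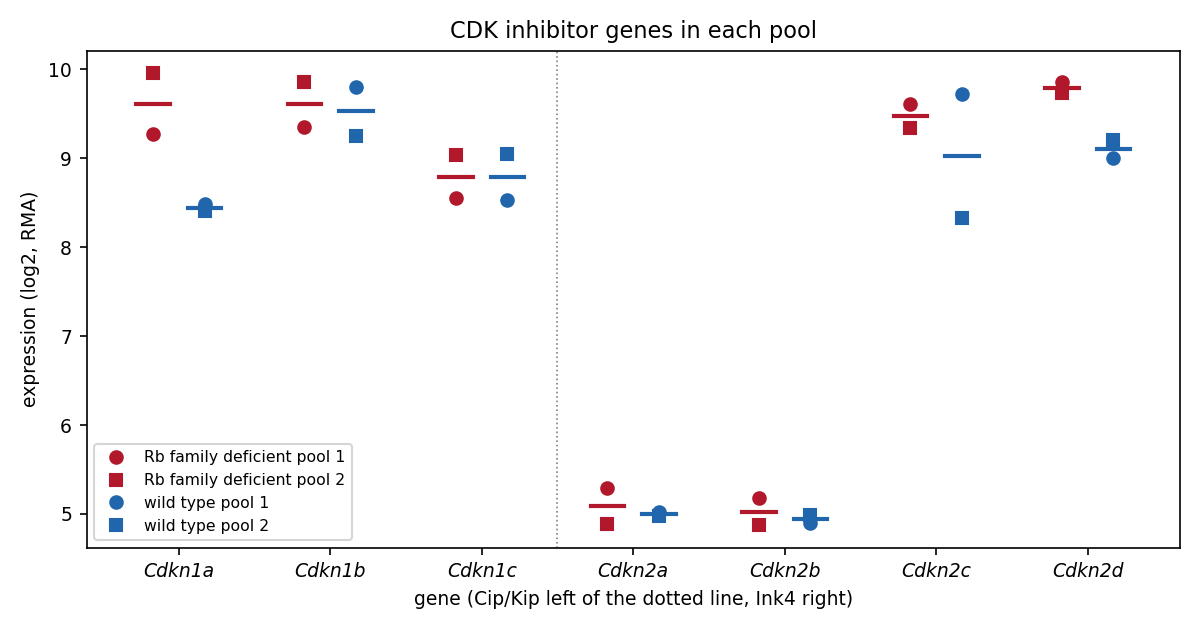
Log2 expression value (y axis) of each CDK inhibitor gene (x axis) in each pool, Rb family deficient in red and wild type in blue, with circles for pool 1, squares for pool 2 and bars for group means (n = 2 pools). The groups are apart for Cdkn1a and Cdkn2d and overlap for the other 5 genes, and for Cdkn2c wild type pool 2 lies at 8.33 against 9.35 to 9.72 in the other pools.

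All differences were tested with limma over all genes, as Rb family deficient minus wild type. Limma called 0 of 18193 genes at an adjusted p under 0.05 (0%), while an unadjusted p under 0.05 was reached by 399 higher genes (2.19%) and 735 lower ones (4.04%). With each array centred on its median that split was 297 higher and 1015 lower. Both deficient pools lay above both wild type pools for 17% of genes and below them for 18.5%. Of the 7 CDK inhibitors, 2 were at an unadjusted p under 0.05 and not overlapping, both higher. The lowest exact permutation p that 2 pools against 2 allow is 0.333, two-sided.

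Among the deleted genes, the p130 gene Rbl2 had log2 values of 7.82 and 8.21 in Rb family deficient HSC, against 8.94 and 8.75 in wild type HSC, a difference of -0.83 (SE 0.19), and its second, dimmer probe set differed by -0.33 (SE 0.18). Rb1 had log2 values of 9.82 and 9.72 in Rb family deficient HSC, against 9.37 and 9.58 in wild type HSC. Both deficient pools thus lay above both wild type pools, as for 17% of all genes. Rb1 differed by 0.29 (SE 0.16), or 0.19 without wild type pool 1, and its second probe set by 0.46 (SE 0.25). Rbl1, the p107 gene, had log2 values of 5.35 and 5.42 in Rb family deficient HSC, against 5.92 and 6.77 in wild type HSC. These did not overlap, as for 18.5% of genes in the lower direction, and the probe set lay in the dimmer part of all genes. Rbl1 differed by -0.96 (SE 0.30), or -0.53 without wild type pool 2 and -0.22 when averaged, and its 3 dimmer probe sets differed by -0.00087, 0.03 and 0.03. Where the probe sets lie relative to the deleted parts is not stated in the labels. Whether the wild type mice lack p107 was therefore not tested, and neither Rb1 nor Rbl2 checks anything about the labels. Of the HSC markers, 8 of 10 were measured, at log2 values between 5.84 and 11.8, with 6 below 0 and a median difference of -0.39, which became -0.17 (deficient pool 1 left out), -0.59 (deficient pool 2 left out) or -0.18 (probe sets averaged). Of these 8, 4 were lower without overlap (18.5% of all genes), namely Procr (-0.85), Cd34 (-0.76), Mecom (-0.69) and Kit (-0.59). The first 3 of them were at an unadjusted p under 0.05 by limma (4.04% of all genes). The list holds Cd48 (-0.03), which the gate excludes, and Cd34, which the gate does not use, so its median is no measure of HSC identity. The gate marker Kit stood at 9.94 and 10.45 in Rb family deficient HSC, against 11.09 and 10.47 in wild type HSC, while the gate markers Slamf1, which encodes CD150, and Cd48 overlapped. The part of these differences in the CDK inhibitor values was not tested.

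Cdkn1a encodes p21, the Cip/Kip inhibitor that p53 induces after DNA damage and that many stress signals also raise. Its log2 values were 9.27 and 9.96 in Rb family deficient HSC, against 8.48 and 8.40 in wild type HSC. The wild type pools lay 0.08 apart and the deficient pools 0.68 apart, and the lower deficient pool was 0.79 above the higher wild type pool. The log2 difference was 1.17 (SE 0.25, 95% interval 0.53 to 1.81, n = 2 pools per group, limma adjusted p = 0.761). Cdkn1a stood at rank 59 of 18193 genes by its log2 difference, the highest first, and at rank 104 by p. Only 0.324% of genes had a log2 difference as large or larger.

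The second Cdkn1a probe set, dimmer and of the kind shared by transcript variants, gave the same order of the groups. Its log2 values were 7.89 and 8.20 in Rb family deficient HSC, against 6.18 and 6.92 in wild type HSC, a log2 difference of 1.499 (SE 0.28, limma adjusted p = 0.757 over all probe sets). Here the wild type pools were 0.74 apart, with pool 1 the lower, while they were nearly equal on the first probe set. Over all 34945 probe sets, 2.61% were higher at an unadjusted p under 0.05, and 18.1% had both deficient pools above both wild type pools.

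RefSeq lists 2 transcription starts for Cdkn1a on chromosome 17 of GRCm38.p6, plus strand. The 250 bases before each start are shown because Cdkn1a had the largest difference of the members and its known regulators act through this region. The upstream window is chr17:29090729-29090978 and the downstream window chr17:29093519-29093768. Capitals mark letters that match a p53 response element by name, searched as a pair of half-sites without spacer and at most 1 letter off its consensus, or the GC box GGGCGG, on both strands.
Cdkn1a upstream start: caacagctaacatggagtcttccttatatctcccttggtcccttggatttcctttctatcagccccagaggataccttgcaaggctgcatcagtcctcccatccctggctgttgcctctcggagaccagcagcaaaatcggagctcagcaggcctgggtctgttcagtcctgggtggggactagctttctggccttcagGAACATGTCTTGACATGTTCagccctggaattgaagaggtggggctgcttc
Cdkn1a downstream start: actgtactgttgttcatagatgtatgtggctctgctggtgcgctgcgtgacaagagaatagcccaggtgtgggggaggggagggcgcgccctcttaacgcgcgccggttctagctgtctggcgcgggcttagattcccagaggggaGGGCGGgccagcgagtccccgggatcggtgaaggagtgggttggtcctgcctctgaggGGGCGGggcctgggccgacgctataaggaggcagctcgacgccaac
The capitals in the upstream window are the p53 element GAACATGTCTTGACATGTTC, 51 to 32 bases before the start. That search was settled on after the window had been read, and 0.0578% of the 32851 windows of this length in the RefSeq table hold a match. The downstream window holds 2 GC boxes, a motif found in 32.7% of all windows. Neither window holds the E2F site TTTNNCGC, found in 4.28% of windows, or the cell cycle element TTTGAA known as CHR, found in 16% of windows. A match is only a run of letters, and the array values do not tell which start was used.

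Cdkn1b encodes p27, a Cip/Kip inhibitor controlled largely by destruction of the protein. On the log2 scale it stood at 9.36 and 9.86 in Rb family deficient HSC, against 9.80 and 9.25 in wild type HSC. Each group held 1 high and 1 low pool, 0.51 apart in the deficient group and 0.55 apart in the wild type group. Deficient minus wild type came to 0.08 (log2, SE 0.27, 95% interval -0.60 to 0.76, limma adjusted p = 0.973). Leaving out deficient pool 2 gave -0.17 and leaving out wild type pool 2 gave -0.19, while the pool 1 arrays, left out in turn, gave 0.34 (deficient) and 0.36 (wild type). A second, dimmer probe set lay at 4.54 and 4.54 in Rb family deficient HSC, against 3.998 and 4.59 in wild type HSC, and differed by 0.25 (SE 0.23). With both averaged, Cdkn1b differed by 0.17.

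Cdkn1c encodes p57, an imprinted gene that quiescent HSC transcribe strongly. Its log2 values were 8.56 and 9.03 in Rb family deficient HSC, against 8.53 and 9.04 in wild type HSC. Pool 1 was the lower and pool 2 the higher in both groups, by 0.48 and 0.52, and the group means were almost equal. The groups differed by 0.01 (log2, SE 0.26, 95% interval -0.64 to 0.66, limma adjusted p = 1.00). Its sign changed with the pools used. Leaving out deficient pool 2 gave -0.23 and wild type pool 1 gave -0.25, whereas leaving out deficient pool 1 gave 0.25 and wild type pool 2 gave 0.27, and median centring gave -0.046.

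Cdkn2a encodes both p16INK4A and, from its upstream start, p19ARF, which acts on p53 through MDM2. Its single probe set cannot be assigned to either product here. The log2 values were 5.29 and 4.89 in Rb family deficient HSC, against 5.02 and 4.97 in wild type HSC. The deficient pools lay on both sides of the wild type pools. Cdkn2a differed by 0.09 (log2, SE 0.19, 95% interval -0.38 to 0.56, limma adjusted p = 0.953), and it was -0.11 without deficient pool 1 and 0.29 without deficient pool 2.

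The windows before the 2 Cdkn2a starts are shown because, of the windows of the 6 members in the RefSeq table, only these matched the E2F site TTTNNCGC. The gene lies on chromosome 4, minus strand, and the windows are chr4:89294620-89294869 for the upstream start and chr4:89282193-89282442 for the downstream start (RefSeq, GRCm38.p6). Capitals mark the E2F site and the GC box GGGCGG.
Cdkn2a upstream start: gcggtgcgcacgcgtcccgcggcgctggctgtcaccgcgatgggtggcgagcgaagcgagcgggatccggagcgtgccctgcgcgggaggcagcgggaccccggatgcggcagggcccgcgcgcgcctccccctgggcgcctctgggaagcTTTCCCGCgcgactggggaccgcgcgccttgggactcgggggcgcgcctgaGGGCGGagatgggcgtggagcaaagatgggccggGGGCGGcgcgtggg
Cdkn2a downstream start: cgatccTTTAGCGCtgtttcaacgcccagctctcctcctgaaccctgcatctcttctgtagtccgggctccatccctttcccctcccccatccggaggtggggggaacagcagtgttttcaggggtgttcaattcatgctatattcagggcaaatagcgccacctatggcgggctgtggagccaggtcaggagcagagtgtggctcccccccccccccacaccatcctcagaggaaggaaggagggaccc
The upstream window holds TTTCCCGC 99 to 92 bases before the start, and the downstream window holds TTTAGCGC 244 to 237 bases before it. Beside these matches Cdkn2a itself overlapped between the groups on the array.

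Cdkn2b encodes p15INK4B, the neighbour of Cdkn2a on chromosome 4 and a known target of TGF-beta signalling. It measured 5.18 and 4.87 (log2) in Rb family deficient HSC, against 4.89 and 4.99 in wild type HSC. As for Cdkn2a, deficient pool 1 had the highest value and deficient pool 2 the lowest. The log2 difference was 0.09 (SE 0.17, 95% interval -0.35 to 0.52, limma adjusted p = 0.951), and leaving out a pool gave -0.067 (deficient pool 1), 0.24 (deficient pool 2), 0.04 (wild type pool 1) and 0.13 (wild type pool 2). Cdkn2a and Cdkn2b both lay in the dimmer of 2 equal parts of all genes by mean value. No detection calls were used, so whether either probe set was above background is not stated.

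Cdkn2c encodes p18INK4C, an Ink4 inhibitor that E2F factors are known to transcribe in cycling cells. Log2 values of Cdkn2c were 9.61 and 9.35 in Rb family deficient HSC, against 9.72 and 8.33 in wild type HSC. Wild type pool 1 was the highest of the 4 pools and wild type pool 2 the lowest, 1.39 apart, a gap between wild type pools that 0.621% of genes reached. The log2 difference was 0.45 (SE 0.46, 95% interval -0.70 to 1.61, limma adjusted p = 0.892). It was -0.24 without wild type pool 2 and 1.15 without wild type pool 1, so the sign rested on wild type pool 2.

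The G2/M list showed the same low pool. Of its 24 genes 23 were measured, 21 were above 0, and 5 were higher in both deficient pools (17% of all genes). Their median centred log2 values were 0.19 and 0.16 in Rb family deficient HSC, against 0.21 and -0.41 in wild type HSC. The summed linear level was 37679 and 36676 in Rb family deficient HSC, against 37087 and 23775 in wild type HSC, and no listed gene had a value at 0. The list's median difference was 0.27, or -0.08 without wild type pool 2 and 0.62 without wild type pool 1. The part of cycling cells in the Cdkn2c values was not tested.

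Cdkn2d encodes p19INK4D, the fourth Ink4 inhibitor, which binds CDK4 and CDK6. Its log2 values were 9.86 and 9.73 in Rb family deficient HSC, against 9.01 and 9.21 in wild type HSC. The pools of a group lay 0.13 and 0.20 apart, and the groups were separated by 0.52 between their nearest pools. The log2 difference was 0.69 (SE 0.16, 95% interval 0.29 to 1.09, n = 2 pools per group, limma adjusted p = 0.761). With 1 pool left out it stayed between 0.59 and 0.79. Cdkn2d stood at rank 232 of 18193 genes by its log2 difference and at rank 134 by p, and 1.28% of genes had a log2 difference as large or larger.

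Its window is shown as that of the Ink4 gene with the largest difference. RefSeq lists 1 start for Cdkn2d, on chromosome 9, minus strand, and the window is chr9:21291210-21291459 in GRCm38.p6. Capitals mark the GC box GGGCGG or its reverse complement.
Cdkn2d: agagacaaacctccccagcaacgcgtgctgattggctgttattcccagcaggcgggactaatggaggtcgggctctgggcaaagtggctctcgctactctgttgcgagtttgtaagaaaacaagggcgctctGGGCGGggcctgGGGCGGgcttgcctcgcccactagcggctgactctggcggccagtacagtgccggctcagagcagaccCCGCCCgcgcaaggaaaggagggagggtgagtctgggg
The window holds 3 GC boxes and no match to the E2F site, the CHR or the p53 element. The letters TTTGAA of the CHR were found before the start of Cdkn2b only among the 6 members with a window in the RefSeq table.

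**Figure D2:**
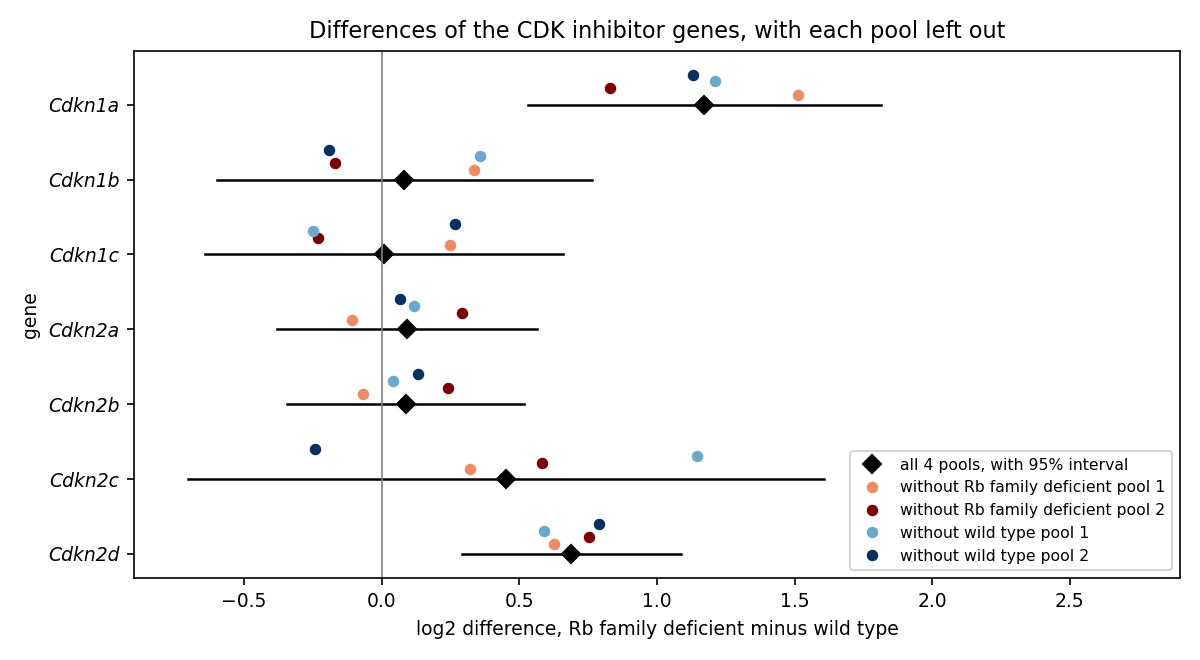
Log2 difference, Rb family deficient minus wild type (x axis), of each CDK inhibitor gene (y axis), with all pools (diamond, with the 95% interval from limma) and with each pool left out (coloured points). Every point of Cdkn1a (0.83 to 1.51) and Cdkn2d (0.59 to 0.79) lies above 0, as must be where the groups do not overlap. Each of the other 5 genes has points on both sides of 0.

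The 2 families, set side by side, each held 1 gene without overlap between the groups, and neither held a gene past the adjusted threshold. The Cip/Kip genes had a median log2 difference of 0.08 and a mean of 0.42, and the Ink4 genes a median of 0.27 and a mean of 0.33. Cip/Kip minus Ink4 was therefore -0.19 by medians and 0.09 by means, opposite in sign. In each family 1 gene was higher in both deficient pools (17% of all genes). All 7 genes had a log2 difference above 0, against 49.2% of all genes, whose median was -0.004, but 5 of the 7 changed sign when a pool was left out. The difference of medians ran from -0.61 without deficient pool 2 to 0.21 without deficient pool 1, with 0.005 without wild type pool 1 and 0.17 without wild type pool 2. It was -0.11 when probe sets were averaged and -0.49 among the brighter genes.

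By pool the families followed different arrays. The mean of the Cip/Kip genes, each centred on its mean over the 4 arrays, was -0.07 and 0.49 in Rb family deficient HSC, against -0.19 and -0.23 in wild type HSC, so the high value was that of deficient pool 2. The mean of the Ink4 genes was 0.30 and 0.03 in Rb family deficient HSC, against -0.02 and -0.31 in wild type HSC, with deficient pool 1 the highest and wild type pool 2 the lowest. Cip/Kip minus Ink4 was -0.37 and 0.46 in Rb family deficient HSC, against -0.17 and 0.08 in wild type HSC. The wild type values lay between the deficient ones, and pools of 1 group differed more than the groups did. The Cip/Kip value carries all 3 genes of the family upward in deficient pool 2, while in the Ink4 family 2 of the 4 genes are the dim probe sets of Cdkn2a and Cdkn2b.

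**Figure D3:**
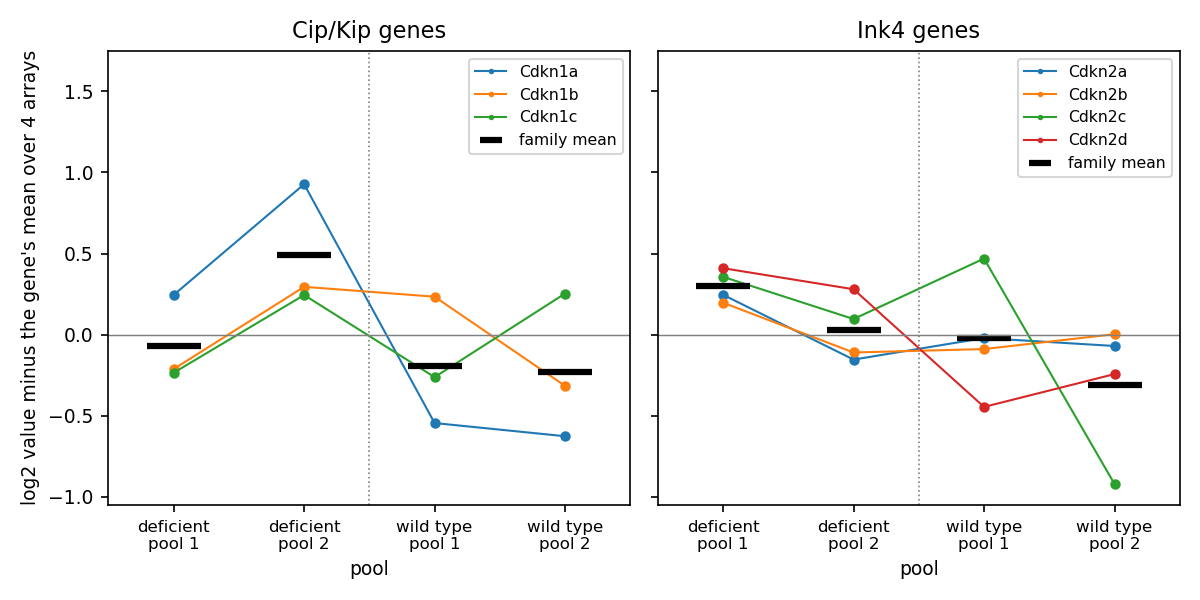
Log2 value minus the gene's own mean over 4 arrays (y axis) in each pool (x axis) for the Cip/Kip genes (left) and the Ink4 genes (right), with lines that join the values of a gene and black bars for the family mean. The Cip/Kip mean is highest in deficient pool 2 (0.49), and the Ink4 mean is highest in deficient pool 1 (0.30) and lowest in wild type pool 2 (-0.31).

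Immediate early genes, which cells switch on soon after a stimulus, were, like Cdkn1a, higher on balance in the deficient pools. All 16 listed genes were measured and lay above 0 (49.2% of all genes), 8 of them at an unadjusted limma p under 0.05 (2.19%). Higher in both deficient pools were 13 (17% of all genes), and the median log2 difference was 0.93, or 0.59 without deficient pool 2. Their median centred values were 0.19 and 0.73 in Rb family deficient HSC, against -0.69 and -0.31 in wild type HSC. Deficient pool 2 was the highest, as for Cdkn1a, and wild type pool 1 the lowest. On its main probe set Cdkn1a was lowest in wild type pool 2, only 0.08 below pool 1. On its second probe set Cdkn1a was lowest in wild type pool 1 (6.18 against 6.92), as were the early genes. The immediate early genes had a summed linear level of 30012 and 35945 in Rb family deficient HSC, against 13816 and 18551 in wild type HSC, and, as everywhere on these arrays, no gene had a value at 0. The part of this response in the Cdkn1a values was not tested.

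Markers of mature neutrophils, which lie outside the sorted gate, were also higher on balance. Of 14 markers 12 were measured, 11 were above 0, and 8 were higher in both deficient pools (17% of all genes). The median was 0.80, or 0.40 without wild type pool 1 and 1.31 without wild type pool 2. Their summed linear level was 68178 and 43330 in Rb family deficient HSC, against 20646 and 43620 in wild type HSC. Their median centred log2 values were 0.72 and 0.11 in Rb family deficient HSC, against -0.81 and -0.13 in wild type HSC. By the median both deficient pools lay above both wild type pools, and by the linear sum they did not. That sum rests mostly on the bright markers S100a8, S100a9, Ngp and Camp. No marker had a value at 0, nor had any other probe set on these arrays. The highest sum, that of deficient pool 1, stood beside the higher Cdkn2d value and the lower Cdkn1a value of that group. The part of such cells in either result was not tested.

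**Figure D4:**
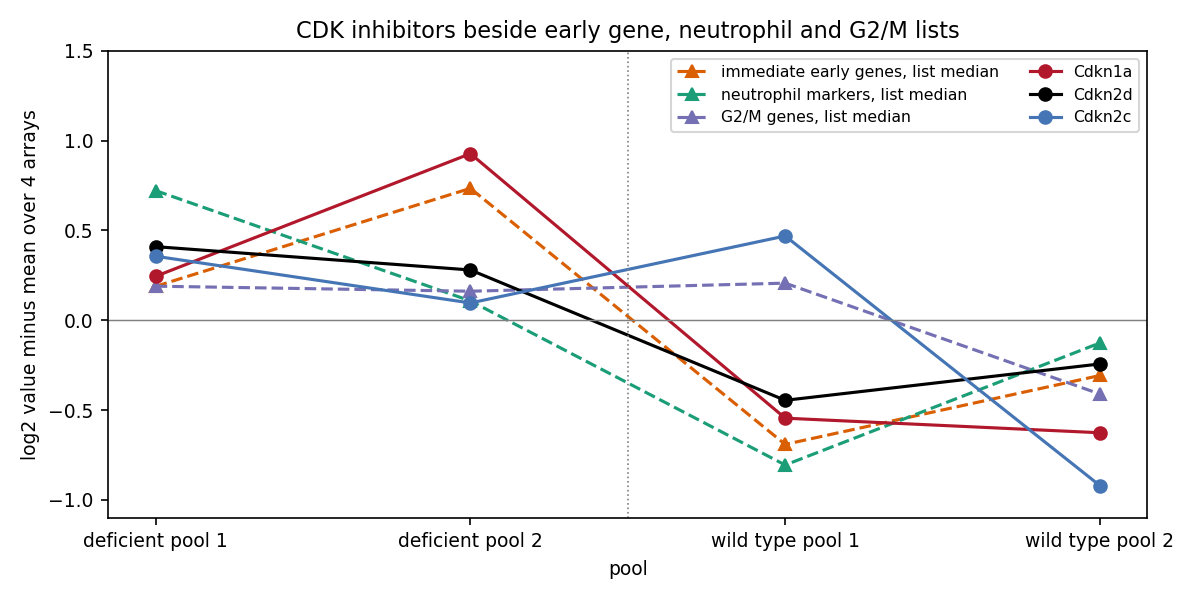
Log2 value minus the mean over 4 arrays (y axis) in each pool (x axis) for Cdkn1a, Cdkn2d and Cdkn2c (solid lines) and as list medians for immediate early genes, neutrophil markers and G2/M genes (dashed lines). Cdkn1a and the immediate early genes are highest in deficient pool 2 (0.93 and 0.73), and Cdkn2c and the G2/M genes are lowest in wild type pool 2 (-0.92 and -0.41).

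The kinases and cyclins that CDK inhibitors bind showed differences of both signs. Of 17 listed genes 16 were measured, with a median log2 difference of -0.14, or -0.05 without wild type pool 1 and -0.09 when probe sets were averaged, and 5 above 0. Limma called 0, and an unadjusted p under 0.05 was reached by 2 higher genes (2.19% of all genes) and 1 lower one (4.04%). Cyclin D1 (Ccnd1), a partner of CDK4 and CDK6, had log2 values of 7.01 and 7.59 in Rb family deficient HSC, against 9.38 and 8.62 in wild type HSC, a difference of -1.70 (SE 0.33), or -1.07 when its probe sets were averaged. Cyclin A2 (Ccna2), a partner of CDK2 and CDK1, differed by 0.69 (SE 0.14), or 0.46 when averaged, with values of 11.19 and 11.17 in Rb family deficient HSC, against 10.52 and 10.47 in wild type HSC. The Ink4 targets parted, with Cdk6 at 0.55 (SE 0.18, 0.35 when averaged) and Cdk4 at -0.38 (SE 0.16).

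Genes for the turnover of Cip/Kip proteins had no member at an unadjusted p under 0.05. The 12 genes had a median of -0.13, or -0.06 without deficient pool 1, -0.03 without deficient pool 2 and -0.06 when probe sets were averaged. Without overlap 2 were higher (17% of all genes) and 4 lower (18.5%). Cks1b, the cofactor that presents p27 to the SKP2 ligase, differed by 0.29 (SE 0.15), and the ligase scaffold Cul1 by -0.31 (SE 0.18), or -0.13 without wild type pool 1 and -0.50 without wild type pool 2. Dtl, the adaptor that targets p21 during DNA replication, differed by -0.27 (SE 0.16), or -0.16 without wild type pool 1, and by 0.51 when its probe sets were averaged. Cdc20 of the anaphase promoting complex differed by 0.38 (SE 0.26), or 0.02 without wild type pool 2 and 0.75 without wild type pool 1.

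The p53 axis and the transcription factors known to act on Cdkn1a had a median log2 difference of -0.03 over 13 of 14 genes, with 6 above 0. The median ran from -0.12 to -0.04 with a pool left out, and was 0.04 when probe sets were averaged, 0.07 with specific probe sets first, -0.08 with median centring and -0.06 among the brighter genes. Limma called 0, and an unadjusted p under 0.05 was reached by 1 higher gene (2.19% of all genes) and 1 lower gene (4.04%). Klf4, a factor that can activate Cdkn1a, had log2 values of 8.22 and 9.25 in Rb family deficient HSC, against 6.37 and 7.26 in wild type HSC, a difference of 1.92 (SE 0.44). The Klf4 difference was 1.32 when probe sets were averaged, 1.41 without deficient pool 2 and 2.43 without deficient pool 1. Mdm4, which restrains p53, differed by -0.45 (SE 0.16), but by 0.21 with specific probe sets first and by -0.10 when averaged. Myc, which can repress Cdkn1a, differed by -0.31 (SE 0.14), and Klf6 by 0.37 (SE 0.21), or 0.14 (without deficient pool 2), 0.60 (without its pool 1), 0.24 (without wild type pool 2) and 0.06 (SE 0.31) with specific probe sets first.

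Among other p53 targets 19 of 20 were measured, with a median of -0.05, which moved to 0.003 (deficient pool 1 left out), 0.08 (wild type pool 1) and -0.11 (wild type pool 2). It was 0.085 when probe sets were averaged, -0.02 with specific probe sets first, -0.11 with median centring and -0.22 among the brighter genes. Of these 7 lay above 0. Without overlap 1 was higher (17% of all genes) and 5 were lower (18.5%). Limma called 0, with 1 higher at an unadjusted p under 0.05 (2.19% of all genes). That gene was Btg2, an antiproliferative gene which is also on the immediate early list, at 0.60 (SE 0.20), or 0.39 without wild type pool 1. Sesn1 differed by -0.35 (SE 0.15), and Aen, a p53-induced exonuclease, by -0.26 (SE 0.16), or -0.13 (wild type pool 1 left out), -0.40 (wild type pool 2 left out) and -0.16 (averaged). Zmat3 differed by 0.47 (SE 0.26), between 0.19 without wild type pool 2 and 0.74 without wild type pool 1, while leaving out a deficient pool gave 0.70 (pool 1) and 0.23 (pool 2). Cdkn1a, itself a p53 target, differed by 1.17.

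Regulators of the Ink4/Arf locus, mostly Polycomb proteins, had a median of -0.02 over 24 of 25 genes, 11 above 0. Leaving out a pool gave a median of 0.08 (deficient pool 1), -0.09 (deficient pool 2), 0.11 (wild type pool 1) or -0.14 (wild type pool 2). Averaging probe sets gave 0.03, specific probe sets first -0.0061, median centring -0.08 and the brighter genes -0.06. Limma called 0, and an unadjusted p under 0.05 was reached by 1 higher gene (2.19% of all genes) and 1 lower gene (4.04%). Id1, an inhibitor of helix-loop-helix factors that can repress p16INK4A, had log2 values of 7.07 and 7.96 in Rb family deficient HSC, against 5.61 and 6.40 in wild type HSC, a difference of 1.51 (SE 0.39). The Polycomb gene Cbx8 differed by -0.45 (SE 0.15), or -0.25 when averaged over probe sets, and E2f3 by -0.40 (SE 0.18), or -0.21 without wild type pool 1 and -0.05 when averaged. Npm1, the nucleolar partner of p19ARF, differed by -0.28 (SE 0.14).

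**Figure D5:**
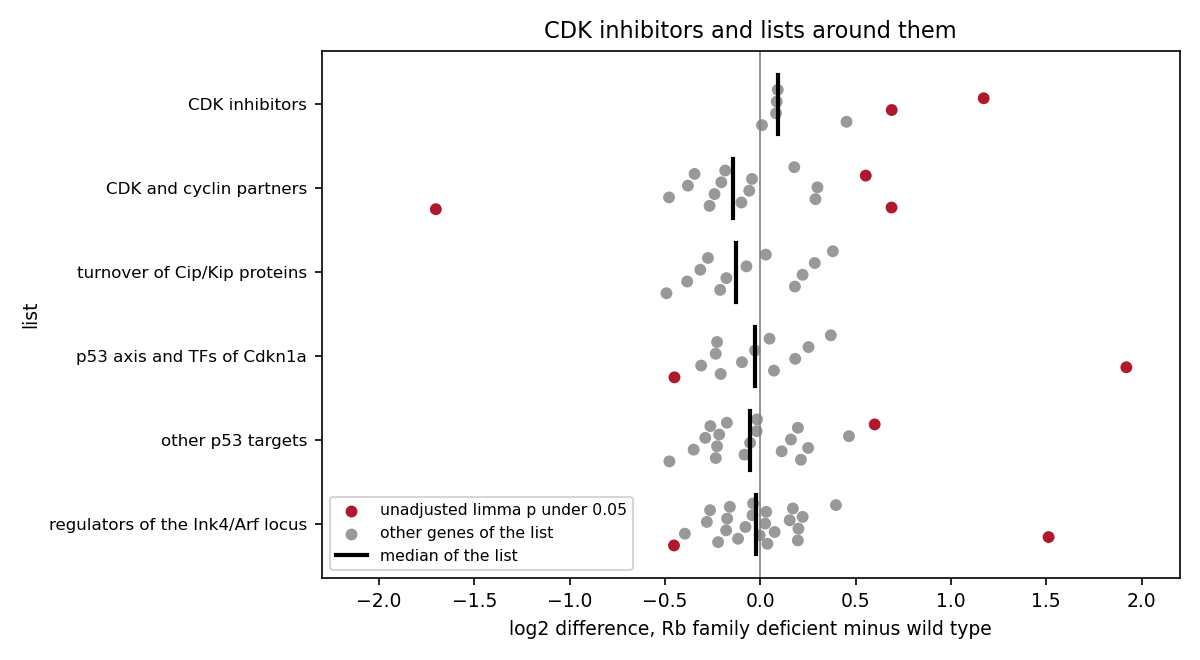
Log2 difference, Rb family deficient minus wild type (x axis), of each measured gene of the CDK inhibitors and of 5 lists around them (rows), with black bars for list medians and red points for an unadjusted limma p under 0.05. Medians run from -0.14 for the CDK and cyclin partners to 0.09 for the CDK inhibitors, and Klf4 (1.92), Id1 (1.51) and Ccnd1 (-1.70) lie farthest from 0.

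The genes most like Cdkn1a over the 4 arrays, by the root mean square difference of centred log2 values, were Hmga2-ps1 (0.07), Jund (0.09) and Csf2rb2 (0.10). Jund, an AP-1 factor on the immediate early list, had log2 values of 10.50 and 11.01 in Rb family deficient HSC, against 9.72 and 9.70 in wild type HSC. The genes most like Cdkn2d were Mfsd2b (0.03), Abhd17b (0.04) and Cyp4x1 (0.05), with log2 differences of 0.66 (SE 0.17), 0.65 (SE 0.16) and 0.66 (SE 0.16). Csf2rb2 differed by 1.06 (SE 0.29), or 0.67 without deficient pool 2, Jund by 1.05 (SE 0.21), or 0.63 when averaged over probe sets, and Hmga2-ps1 by 1.03 (SE 0.24). With 4 arrays many genes lie close to any profile, so these names describe likeness only.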

How the data were processed

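The authors deposited an RMA log2 value for each probe set on each array, per the submitters' processing notes, which also name limma without versions or settings. That these are log2 follows from their range, 2.65 to 14.9. RMA compresses differences of dim probe sets, and the number of arrays limits the precision. The table held 45101 probe sets, of which 34945 had exactly 1 gene symbol in the 2016 platform annotation. Symbols were updated by Entrez ID with a RefSeq gene table (34741 matched), and promoter sequences are from RefSeq, GRCm38.p6. The 18193 genes, each by its probe set with the highest mean, were fitted with limma 3.58.1 in R 4.3.3 (lmFit and eBayes, no block), with Benjamini-Hochberg adjustment over all genes and a threshold of 0.05. The second probe sets were fitted over all probe sets with 1 gene symbol. Every SE is limma's moderated standard error. The fit was tested on simulated arrays.

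Groups came from the sample titles. The members, the 5 lists around them and the 9 marker and state lists were chosen with earlier results of these data known. From each of the 5 lists the text names the 4 genes with the smallest p, and for the leading gene of each family the 3 genes with the most similar profile. Same-numbered pools deviated from their group means with a correlation of -0.188 over genes, so their numbers were not taken to pair them. Listed genes without a probe set of 1 gene symbol are not analysed here. Alternatives were other probe set choices, median centring, a filter on dim genes, limma with trend and robust, leaving out each pool and a replicate block.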

Additional observations from a re-analysis of the deposited data

How the results depend on the processing

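No gene passed limma's adjusted threshold under any of 11 alternatives, 10 planned and 1 added after seeing the data. Cdkn1a and Cdkn2d lay above 0 in all 10 planned ones, at 0.83 to 1.51 and 0.59 to 0.79. Where the groups do not overlap, leaving out 1 pool cannot turn the sign, so those settings tell only how the size moved. Cdkn2d has 1 probe set, so the choice of probe set could not change its value either. For Cdkn1a, specific probe sets first kept the main probe set, and averaging joined probe sets that were both higher. The filter on dim genes, limma with trend and robust and the replicate block leave a difference as it is. Median centring gave 1.12 for Cdkn1a and 0.63 for Cdkn2d. The count of 10 is thus no measure of how firm these signs are. With a pool left out, Cdkn1b ran from -0.19 to 0.36, Cdkn1c from -0.25 to 0.27, Cdkn2a from -0.11 to 0.29, Cdkn2b from -0.067 to 0.24 and Cdkn2c from -0.24 to 1.15. The family medians then ran from -0.17 to 0.36 for Cip/Kip, from 0.10 to 0.44 for Ink4 and from -0.61 to 0.21 for their difference, and the genes at an unadjusted p under 0.05 from 244 to 689 among the higher and from 317 to 1082 among the lower. With median centring Cdkn1c was -0.046, Cdkn1b 0.03, Cdkn2a 0.04 and Cdkn2b 0.03. Dtl came to 0.51 when its probe sets were averaged, and Mdm4 was 0.21 with specific probe sets first. In the brighter part of the genes, which leaves out Cdkn2a and Cdkn2b, the Ink4 median was 0.57, with 176 genes higher and 408 lower, a count over fewer genes. The replicate block left every difference as it was and gave 281 higher and 457 lower genes at an unadjusted p under 0.05, with 0 past the threshold. With the numbers crossed, a choice made because same-numbered pools correlated weakly and negatively (-0.188), 518 were higher and 1151 lower and 0 passed. That pairing was picked from these same values, so its counts support nothing. With limma trend and robust 488 were higher and 588 lower. Why counts moved was not tested, and with 2 pools per group small differences of dim probe sets such as Cdkn2a and Cdkn2b are beyond these data.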

Other observations

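CDK-associated phosphatase Cdkn3, which shares the name but belongs to neither inhibitor family, stood at log2 values of 8.32 and 7.94 in Rb family deficient HSC, against 7.94 and 7.53 in wild type HSC. Its log2 difference was 0.40 (SE 0.22, limma adjusted p = 0.825), and the groups were parted by only 0.003. Cdkn3 was chosen after its values were seen.

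For markers of other cell types outside the gate, the median log2 difference was 0.09 over 7 macrophage and monocyte markers, 0.19 over 7 erythroid markers, 0.03 over 8 megakaryocyte markers, 0.29 over 7 B cell markers and 0.04 over 7 T and NK cell markers. Erythroid markers varied most within groups, with a summed linear level of 5609 and 2714 in Rb family deficient HSC, against 1689 and 6434 in wild type HSC. With a pool left out, the medians ran from -0.36 (without wild type pool 1) to 0.60 (without wild type pool 2) for erythroid markers and from -0.02 (without deficient pool 1) to 0.21 (without wild type pool 2) for macrophages and monocytes. They ran from -0.13 (without deficient pool 2) to 0.19 (without deficient pool 1) for megakaryocytes, from -0.02 (without wild type pool 1) to 0.58 (without wild type pool 2) for B cells, where leaving out deficient pool 1 gave 0.03, and from 0.02 to 0.08 for T and NK cells. Median centring gave -0.02 for megakaryocytes and -0.01 for T and NK cells, and the brighter genes gave 0.17 and 0.30 for these lists. Limma called 0 markers of these 5 lists, with 1 megakaryocyte marker higher at an unadjusted p under 0.05 (2.19% of all genes).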
